A study of Mus musculus with 22 samples.

Results

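The genes described here are Fas and 8 further genes of programmed cell death, namely Bcl2, Bcl2l1, Bcl2l11, Bax, Bak1, Bmf, Casp8 and Apaf1, in the forelimb of the mouse embryo. They were taken by name and RefSeq accession from the non-control probes of the array: 9 of its 21332 named genes, with 21 of its 41174 probes. Forelimbs of embryos lacking Chsy1, which encodes chondroitin sulfate synthase 1, were compared with wild-type forelimbs. All embryos were of strain 129 and had an age of 13.5 days. There were 13 arrays labelled Chsy-1 knockout and 9 labelled wild type, and 1 of the knockout arrays kept much of its Chsy1 signal. On each array the sample's RNA carried Cy5 and a universal mouse reference RNA, a commercial pool, carried Cy3. The labels do not give the altered part of Chsy1, the sex of the embryos, or whether a sample is 1 embryo or a pool, so the spread behind each p-value is that among these samples and may be partly technical.

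The hand and foot plates of the mouse are first joined by mesenchyme between the digits, which is removed by apoptosis while the digits are freed. Apoptosis can be started at the cell surface, where Fas ligand binds the receptor Fas and caspase 8 is activated, or at the mitochondrion. There, BH3-only proteins such as Bim (from Bcl2l11) and Bmf block the survival proteins Bcl2 and Bcl-xL (from Bcl2l1), so that Bax and Bak open pores and cytochrome c assembles the Apaf1 apoptosome. In mice, loss of Bax together with Bak1, or of Bcl2l11 together with Bmf, leaves webs between the digits.

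None of the 9 genes differed between knockout and wild-type forelimbs at an adjusted p of 0.05 (limma, adjusted over 18642 genes and unnamed probes). Of everything tested, 4 were called, or 0.0215%, all lower in knockout. The largest of the 9 differences were those of Fas, at -0.30 on the log2 scale (95% interval -0.51 to -0.09), and of the BH3-only gene Bmf, at 0.22 (0.05 to 0.39). These 2 had an unadjusted p under 0.05, as 5.33% of the whole table had (3.95% lower and 1.38% higher in knockout), and their limma adjusted p was 0.91 and 0.92. The other 7 differences lay between -0.10 and 0.08. The 95% intervals of all 9 lay within 1.5-fold in either direction, and in each gene the knockout and wild-type arrays overlapped. The share of the whole table with such intervals or such overlap was not counted, so neither is read as particular to these genes. The median difference was -0.0083 over the 9 genes, against -0.0072 over the whole table.

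Every value here is a log2 ratio of forelimb to reference for 1 probe, so ratios say how a gene compares with the same gene in the reference and not with another gene. The dyes were not swapped, so a probe's dye bias cannot be told apart from a difference between forelimb and reference. The 0 of the ratios is set by the loess scaling, so a ratio close to 0 does not place a gene above or below the reference. The probe with the brightest signal stood for its gene, and each of the 9 was well above background in Cy5 on all 22 arrays. Between 27214 and 30599 of 43379 non-control spots were well above background per array, and the median Cy5 signal was 102.8 to 178.9 units over a median background of 54 to 57. The standard error of a difference ran from 0.051 for Bax to 0.13 for Bak1, with the number of arrays and the spread between them. The arrays lay on 6 slides, each with both genotypes. Position on the slide was less balanced: position 1 held wild-type arrays, positions 3 and 4 held knockout arrays, and position 2 held 3 of each. The log2 ratio of Chsy1, which checks the labels, averaged -4.38 ± 1.39 in knockout and 1.73 ± 0.28 in wild type (SD, n = 13 and n = 9). It was 0.15 in the array labelled knockout 1, against -5.12 to -4.05 in the other 12 knockout arrays and 1.28 to 2.02 in wild type, so that array goes against its label. Without it the differences were -0.28 for Fas and 0.24 for Bmf, none of the 9 changed direction, and again none passed the test. The 8 markers fixed for limb mesenchyme, among them Prrx1, Tbx5 and Hoxd13, were above background on all arrays. A bulk ratio cannot tell fewer cells of a type from less RNA per cell.

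**Figure D1:**
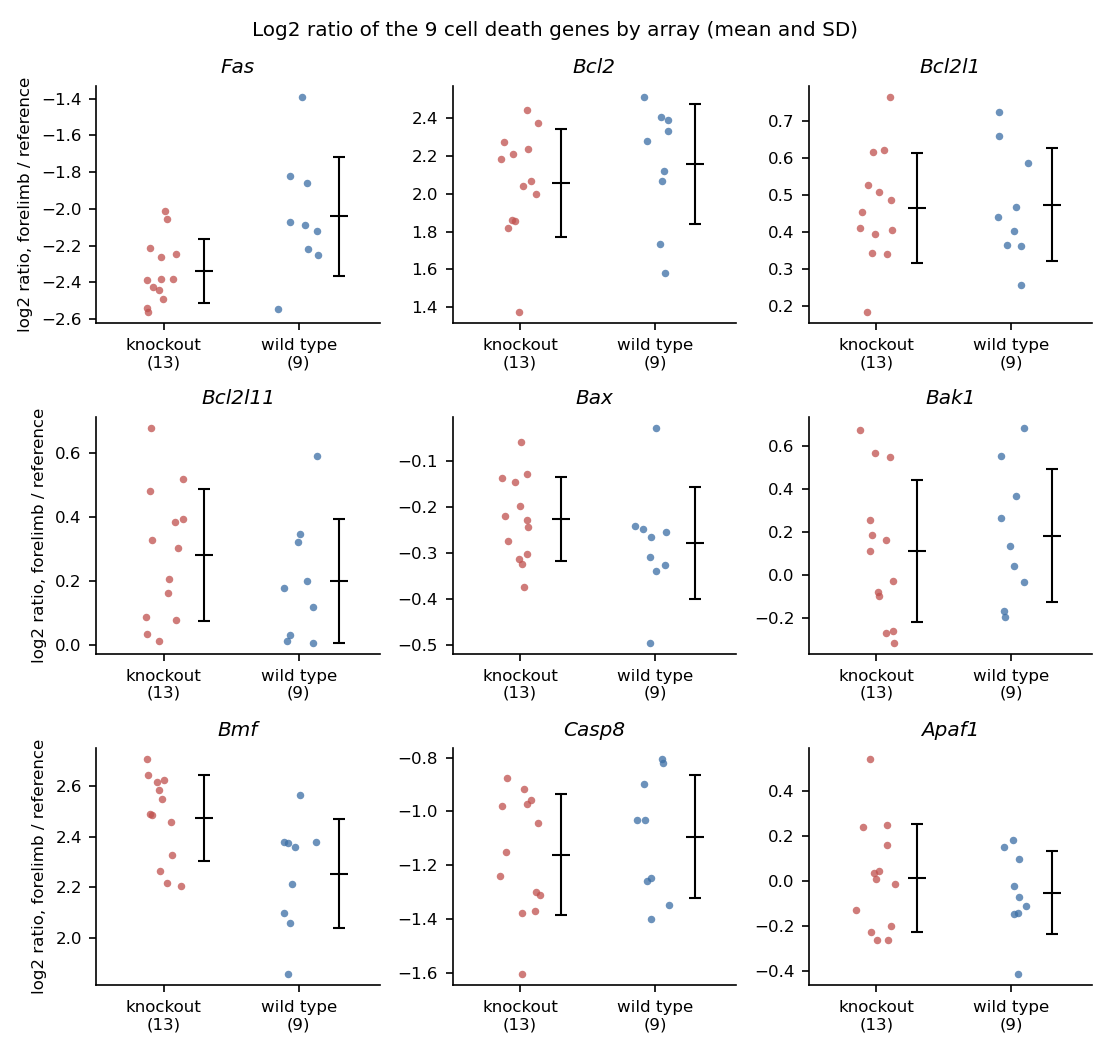
Log2 ratio of forelimb to reference (vertical axis, a separate scale in each panel) for the probe of each of the 9 genes, with 1 point per array and bars for the mean and SD of the 13 knockout and 9 wild-type arrays. The groups overlap in every panel, and Fas has wild-type 1 alone at the top, at -1.39.

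Fas is the death receptor of the set. Its probe lies at chromosome 19, 34393409 to 34393468 (mm8, plus strand), and was printed 10 times on each array. The log2 ratio ran from -2.56 in knockout 10 over a median of -2.38 to -2.01 in knockout 12. In wild type it ran from -2.55 in wild-type 8 over a median of -2.09 to -1.39 in wild-type 1. Fas RNA was thus lower in forelimb than in the reference on all 22 arrays, by 5.06-fold in knockout and 4.12-fold in wild type. The group means were -2.34 ± 0.17 in knockout and -2.04 ± 0.33 in wild type (SD, n = 13 and n = 9), and the wild-type median exceeded 11 of 13 knockout values. All but 1 knockout array lay within the wild-type range. The difference of -0.30 (SE 0.10, a ratio of 0.814 with an interval of 0.703 to 0.942) ranked 153 by p in the whole table.

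The size of that difference varied with the arrays and the scaling. It was below 0 on 5 of 6 slides, from -0.65 on slide 4 to 0.05 on slide 3. By position, the mean log2 ratio of Fas was -1.92 in the 6 wild-type arrays of position 1. In position 2 it was -2.40 in knockout and -2.29 in wild type, a difference of -0.11, which was -0.044 without the array labelled knockout 1. In positions 3 and 4, all knockout, it was -2.30 and -2.35. Genotype and position thus differ together outside position 2. A fit with position as a block can draw its estimate from position 2 alone, so it repeats the -0.11, with an interval of -0.49 to 0.26. The part of position was not otherwise tested. Without wild-type 1 the difference was -0.22 (-0.39 to -0.04). From the Cy5 channel alone it was -0.14, and with both channels quantile normalised it was -0.16.

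**Figure D2:**
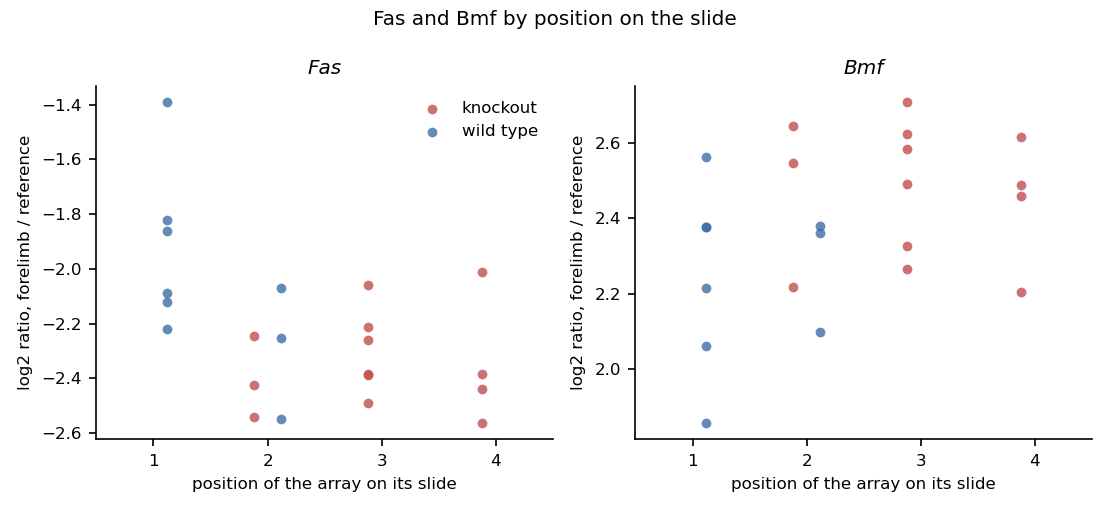
Log2 ratio of forelimb to reference (vertical axes) of Fas and Bmf by position of the array on its slide (horizontal axes), with 1 point per array. Position 1 holds wild type alone and positions 3 and 4 hold knockout alone. Within position 2 the groups differ by -0.11 for Fas and 0.19 for Bmf, or by -0.044 and 0.32 without the array labelled knockout 1.

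The brightness behind the Fas ratios was low in Cy5. The knockout arrays had 200 to 285.7 units with a median of 229.8, and the wild-type arrays 153.5 to 273.4 units with a median of 245.7. In Cy3, the reference, the same spots had 608 to 694.7 units on knockout arrays and 569.1 to 691 units on wild-type arrays. Wild-type 1, with the highest Fas ratio, had 183.1 units in Cy5 and 569.1 in Cy3. Wild-type 8, with the lowest wild-type ratio, had 253.1 and 648.8 units. These unscaled signals do not place wild-type 1 above wild-type 8, and that order appears only after background correction and loess scaling. An offset of 50 is added to each channel before the ratio is taken, which compresses ratios at such signals. With an offset of 10 the difference was -0.33. A further Fas probe, at chromosome 19, 34375240 to 34375299, was well above background in Cy5 on 1 knockout array and no wild-type array and was not tested.

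Repeated spots measure the error from spot to spot. Errors of labelling or hybridisation are shared by all spots of an array and are part of the spread between arrays. Fas, Bcl2, Bcl2l1 and Bax each had a probe printed 10 times per array. For Fas the SD among spots of an array, pooled over arrays, was 0.094, and the error of an array's mean was 0.030. The SD between arrays was 0.17 in knockout and 0.33 in wild type. After scaling, the Fas spots of wild-type 1 ran from -1.58 to -1.25, above every other spot of the 22 arrays. The highest of those others was -1.66 in knockout 13. In knockout 13 that spot stood apart, and the spot SD of 0.26 was the highest for Fas. For Bax the pooled spot SD was 0.022, against 0.091 between knockout arrays and 0.12 between wild-type arrays. For Bcl2 the spot SD was 0.031, against 0.29 between knockout arrays and 0.32 between wild-type arrays. For Bcl2l1 it was 0.056, against 0.15 in knockout and 0.15 in wild type, but on wild-type 6 it was 0.13, with 1 spot at -0.054 below every other Bcl2l1 spot of the 22 arrays. In these 4 genes most of the spread within a genotype was between arrays and not between spots.

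**Figure D3:**
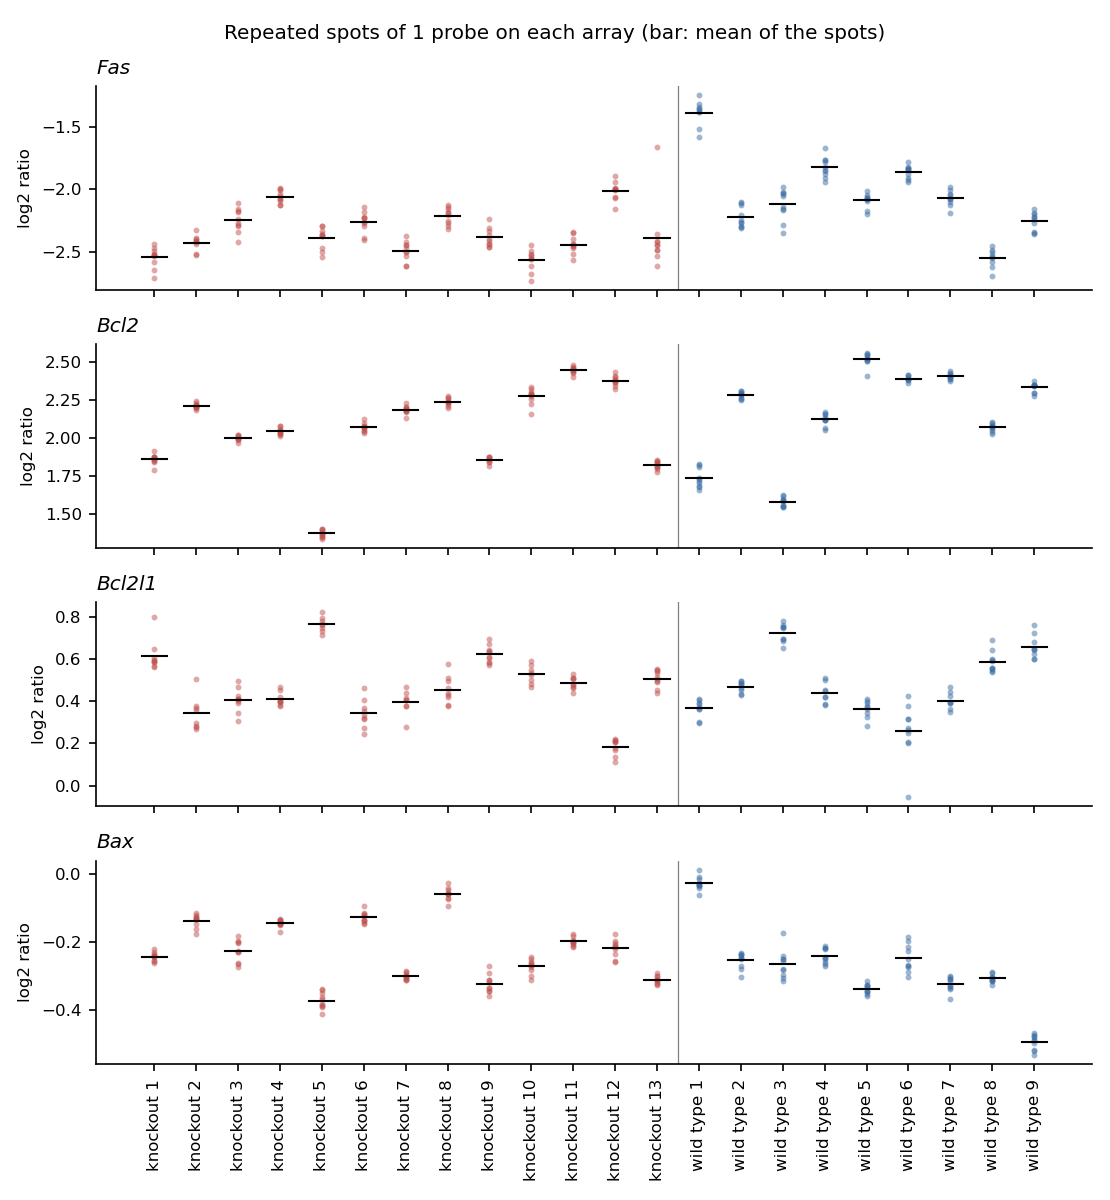
Log2 ratio of forelimb to reference (vertical axes) of each repeated spot of Fas, Bcl2, Bcl2l1 and Bax on the 13 knockout arrays (left) and the 9 wild-type arrays (right), with a bar at the mean of each array. The spots of most arrays lie close together compared with the distance between arrays. A spot of Fas on knockout 13 at -1.66 and one of Bcl2l1 on wild-type 6 at -0.054 stand apart from the others of their array.

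By their brightest probes, the survival genes Bcl2 and Bcl2l1 were higher in forelimb than in the reference on every array. Bcl2 encodes the founding survival protein of the family, and its brightest probe lies at chromosome 1, 108365763 to 108365822 (minus strand). Its log2 ratio ran from 1.37 in knockout 5 over a median of 2.07 to 2.44 in knockout 11, and from 1.58 in wild-type 3 over a median of 2.28 to 2.51 in wild-type 5. The ranges overlap over most of their length, and 11 of 13 knockout values were below the wild-type median. The difference was -0.10 (-0.35 to 0.15). Probes of other Bcl2 transcripts, at 108539940 to 108539999 and 108538280 to 108538339, differed by -0.28 (-0.73 to 0.17) and -0.21 (-0.55 to 0.14). All 3 estimates were thus below 0, with intervals that include 0. Their arrays are the same, so they are not independent.

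Bcl2l1 encodes Bcl-xL, and its brightest probe lies at chromosome 2, 152472336 to 152472395 (minus strand). The log2 ratio ran from 0.18 over a median of 0.45 to 0.77 in knockout, and from 0.26 over a median of 0.44 to 0.73 in wild type. The difference was -0.0083 (-0.15 to 0.13), and those of 2 further probes were -0.035 and 0.031. These probes do not share the level of the brightest one, since they were below the reference on 21 and 15 of 22 arrays. The means were 1.38-fold above the reference in knockout and 1.39-fold above it in wild type.

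Of the pore-forming genes, Bax had the tightest values. Its probe lies at chromosome 7, 45334141 to 45334296 (minus strand). The log2 ratio ran from -0.37 over a median of -0.23 to -0.058 in knockout, and from -0.50 over a median of -0.27 to -0.027 in wild type. The ratio was below 0 on all 22 arrays, but in part close to it. The difference was 0.052 (-0.053 to 0.16), a ratio of 1.04. It was 0.17 within position 2, and ran from 0.025 without wild-type 9 to 0.084 without wild-type 1. Bak1, at chromosome 17, 26747611 to 26747670 (minus strand), varied more. It ran from -0.32 over a median of 0.11 to 0.67 in knockout, and from -0.20 over a median of 0.13 to 0.68 in wild type. The difference was -0.07 (-0.34 to 0.20), and -0.011 by the other probe. It was 0.059 within position 2.

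Both BH3-only genes of the set had log2 ratios above 0 on every array by their brightest probes, though those of Bcl2l11 came as close to 0 as 0.0052. Bmf encodes a protein that was found bound to the myosin V motor and is released on loss of attachment. Its brightest probe lies at chromosome 2, 118220224 to 118220283 (minus strand). The log2 ratio of Bmf ran from 2.21 in knockout 13 over a median of 2.49 to 2.71 in knockout 6. In wild type it ran from 1.86 in wild-type 1 over a median of 2.36 to 2.56 in wild-type 6. The knockout arrays lay above the wild-type median in 9 of 13 cases, and 5 lay above every wild-type array. The difference was 0.22 (SE 0.081), a ratio of 1.16 with an interval of 1.04 to 1.31. It was above 0 on 5 of 6 slides, from -0.16 on slide 6 to 0.40 on slide 1, and 0.19 within position 2, or 0.32 there without the array labelled knockout 1. Without wild-type 1 it was 0.17. The other Bmf probes, which were dim with at most 173.2 Cy5 units, differed by -0.049 (-0.16 to 0.065) and 0.074 (-0.04 to 0.19). Averaged over its 3 probes, Bmf differed by 0.08.

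Bcl2l11 encodes Bim, which binds all survival proteins of the family. Its brightest probe lies at chromosome 2, 127853756 to 127853815 (plus strand). The log2 ratio ran from 0.013 over a median of 0.30 to 0.68 in knockout, and from 0.0052 over a median of 0.18 to 0.59 in wild type. The difference was 0.08 (-0.09 to 0.26). The other 2 probes were above the reference on 20 and 10 of 22 arrays. They differed by 0.033 and 0.055, so all 3 estimates were above 0 and all 3 intervals include 0.

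**Figure D4:**
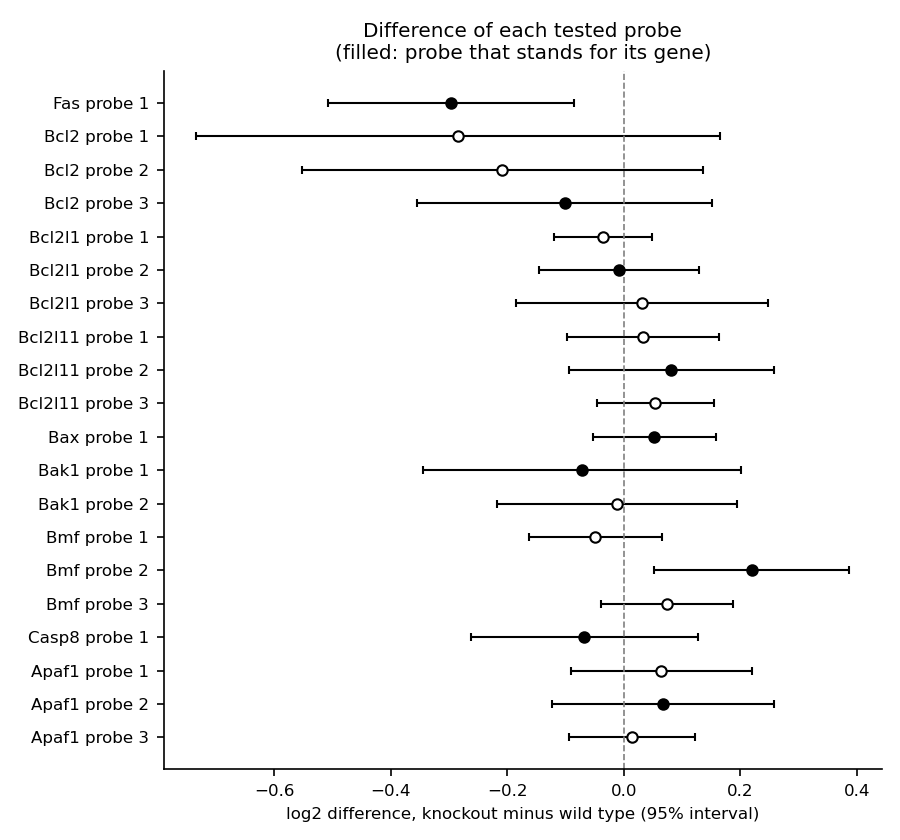
Log2 difference, knockout minus wild type, with its 95% interval (horizontal axis) for the 20 tested probes of the 9 genes, numbered within each gene in order of probe name. The filled probe stands for its gene. The intervals of the filled Fas and Bmf probes exclude 0, those of the other 18 include it, and 10 of the 20 estimates are below 0.

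Casp8 encodes the caspase that Fas activates through its adaptor. Its probe lies at chromosome 1, 58789303 to 58789362 (plus strand). The log2 ratio ran from -1.60 over a median of -1.15 to -0.88 in knockout, and from -1.40 over a median of -1.03 to -0.80 in wild type. It was below the reference on all 22 arrays, by 2.24-fold in knockout and 2.13-fold in wild type. The difference was -0.07 (-0.26 to 0.13). Apaf1, the scaffold of the apoptosome, has its brightest probe at chromosome 10, 90419634 to 90419693 (minus strand). It ran from -0.26 over a median of 0.01 to 0.54 in knockout, and from -0.41 over a median of -0.07 to 0.18 in wild type. The difference was 0.07 (-0.12 to 0.26), and 0.065 and 0.014 by the other probes. The files give probe positions on mm8 without an exon or a UTR, and no annotation of that build was used here.

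The same arrays stood at the ends of several genes in both genotypes. Bcl2 was lowest in knockout 5 and, within wild type, in wild-type 3, and in these same 2 arrays Bcl2l1 was highest. Bcl2l11 and Apaf1 were highest in knockout 12 and wild-type 6, the 2 arrays in which Bcl2l1 and Casp8 were lowest. Marker genes of the limb's cell types moved with some of these arrays. In knockout 5 and wild-type 3 the mean log2 ratio of the 8 limb mesenchyme markers was the highest of each group, at 3.30 and 3.21, as was that of the erythroid markers, at 4.09 and 4.17. In knockout 12 the mean of the mesenchyme markers was the lowest of its group, at 2.34, and so was that of the cartilage markers, at 2.84. In wild-type 6 the mesenchyme mean, at 2.63, was above that of wild-type 1 alone, and the cartilage mean was the wild-type median, at 3.70. The part of cell make-up in these values was not tested.

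Wild-type 1 was at an end of the wild-type range for 4 of the 9 genes. It was highest for Fas, Bax and Bak1 and lowest for Bmf. In that array the markers of limb mesenchyme averaged 2.14, those of cartilage 2.41, of skeletal muscle 2.12 and of endothelium 1.15, the lowest wild-type value of each, against wild-type medians of 2.93, 3.70, 2.87 and 2.28. The erythroid and surface ectoderm markers, at 3.05 and 1.57, were also lowest there. Knockout 12, the knockout array with the highest Fas ratio, had the lowest knockout mean for mesenchyme, cartilage, muscle at 2.14, endothelium at 1.38 and erythroid cells at 3.30. The 8 macrophage markers averaged -0.87 in wild-type 1, within the wild-type range of -1.02 to -0.56. Over all arrays none of the 8 macrophage markers passed the test, and their mean ran from -1.01 to -0.52 in knockout. The cartilage, skeletal muscle and surface ectoderm markers had median differences of -0.16, -0.14 and -0.14, with 6, 7 and 6 of 8 below 0 and none past the test. Endothelial and erythroid markers had medians of -0.03 and 0.04, with 7 of 8 and 3 of 7 below 0. Of the limb mesenchyme markers 3 of 8 were below 0, as were 3 of 8 macrophage markers. Over everything tested, 53.36% of differences were below 0. The part of these markers in the Fas and Bmf values was not tested.

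The rest of the pathway was read through lists of genes that carry out or govern cell death. None of their tested members passed in either direction, against 0.0215% of everything tested. Counts of direction stand beside 53.36% below 0 over everything tested. Of the death receptors and ligands other than Fas, 7 were tested, with 4 above 0 and a median difference of 0.0050. Fasl, the ligand of Fas, was above background on 11 of 22 arrays and differed by 0.03 (-0.04 to 0.10). The tumour necrosis factor receptor gene Tnfrsf1a differed by 0.04 and the TRAIL receptor gene Tnfrsf10b by -0.06. Tnfrsf12a, the receptor gene of the ligand TWEAK, differed by -0.20 (-0.37 to -0.03, limma adjusted p = 0.92), and the ligand gene Tnf by -0.14 (-0.36 to 0.07), both named after their values were seen. Of 9 adaptors and regulators of the receptors, 7 were below 0, with a median of -0.10. Fadd, the adaptor between Fas and caspase 8, differed by 0.04 (-0.10 to 0.19), and Cflar, which blocks that step, by -0.06 (-0.29 to 0.17).

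No member of the Bcl2 family outside the 9 genes passed the test. The survival genes Mcl1 and Bcl2l2 differed by -0.03 and 0.05, and the pore-forming relative Bok by -0.05. Of the BH3-only genes other than Bmf and Bcl2l11, 7 were tested, with 3 above 0 and a median of -0.0093. Bid, which links caspase 8 to the mitochondrion, differed by -0.10 (-0.23 to 0.02). Bad differed by 0.14 (-0.01 to 0.29), and by 0.0011 with another probe. The p53 targets Bbc3 and Pmaip1 differed by -0.05 and 0.19 (-0.05 to 0.43), an estimate near that of Bmf with a wider interval.

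Downstream of the mitochondrion, the list of the apoptosome and caspases without Apaf1 and Casp8 had a median of 0.06, with 5 of 6 above 0. Cycs, which encodes cytochrome c, differed by 0.00019. The initiator Casp9 differed by 0.09 (-0.10 to 0.28). In the list of inhibitors of apoptosis and their antagonists 8 of 9 were below 0, with a median of -0.04. The exception was Xiap, a direct caspase inhibitor, at 0.26 (-0.04 to 0.57). Its antagonist Diablo differed by -0.0070. The list of nuclear execution had a median of 0.00041.

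Among p53 and its targets the median was -0.04 over 11 genes. Trp53, Mdm2 and Cdkn1a differed by -0.08, -0.04 and -0.12, with intervals that include 0. Trp53inp1, named after its value was seen, was the highest of this list at 0.32 (0.10 to 0.54, limma adjusted p = 0.91), and differed by 0.011 with another probe. The signals known to govern death between the digits had a median of -0.03 over 19 genes, 11 of them below 0. The ligand genes Bmp2, Bmp4 and Bmp7 differed by 0.06, -0.09 and -0.08. Msx2, a target of these ligands in the limb, differed by 0.30 (-0.10 to 0.70). The retinoic acid receptor gene Rarb differed by -0.04, and by 0.095 with another probe. The Wnt antagonist gene Dkk1 differed by -0.20 (-0.63 to 0.24), and by -0.016 with another probe. The 18 genes of corpse clearance and macrophages had a median of 0.01. Named after their values were seen, the bridging protein gene Mfge8 differed by -0.19 (-0.35 to -0.03) and the lipid transporter gene Abca1 by 0.20 (0.03 to 0.38), each with a limma adjusted p of 0.92.

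**Figure D5:**
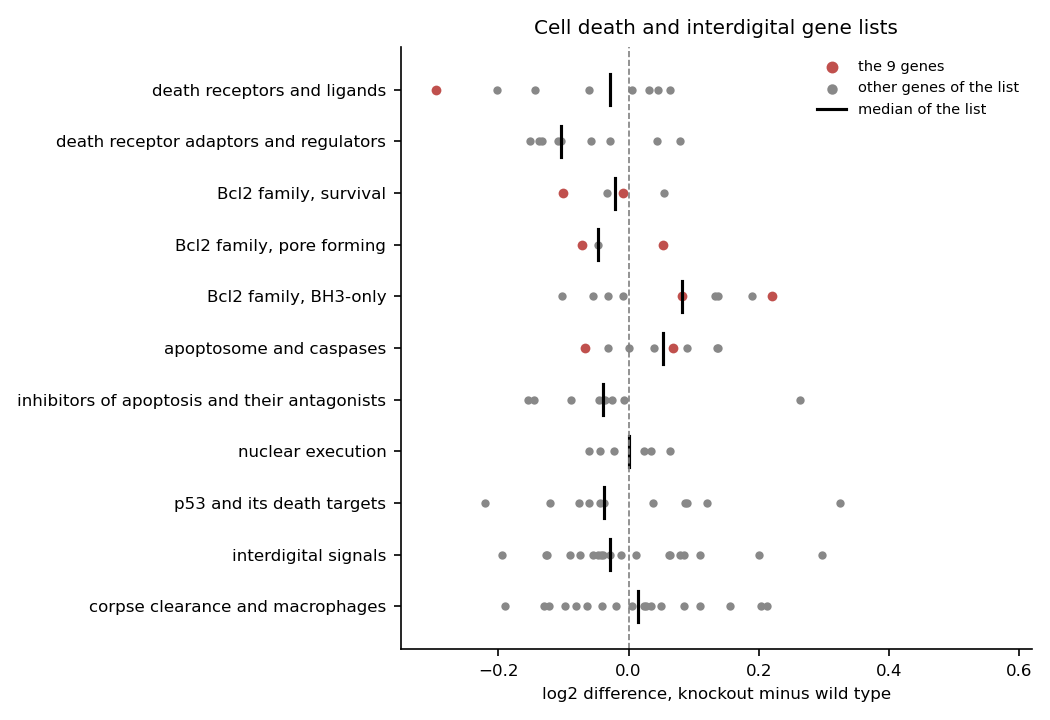
Log2 difference, knockout minus wild type (horizontal axis), of each tested gene in 11 lists of cell death and interdigital genes, with the 9 genes in red and a bar at the median of each list. List medians, the 9 genes included, lie between -0.10 and 0.08, with Fas at -0.30 at the lower end.

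Of the 18641 other genes and unnamed probes, those whose arrays followed Fas most closely were Plscr2, Ms4a7 and Steap1. Likeness was the correlation of deviations from the group means over the 22 arrays. Plscr2, a phospholipid scramblase gene, had r = 0.95 and rho = 0.90. Ms4a7 had r = 0.94 and rho = 0.86, and Steap1, a metalloreductase gene, r = 0.93 and rho = 0.86. These are the highest of 18641 values, so no p is given. Like Fas, the 3 genes had less RNA in forelimb than in the reference, with mean log2 ratios of -3.44, -1.89 and -3.83 in knockout and -3.12, -1.91 and -3.58 in wild type. Without wild-type 1 the r were 0.93, 0.89 and 0.92. Plscr2, Ms4a7 and Steap1 differed between the genotypes by -0.32, 0.02 and -0.24, none of which passed the test.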

How the data were processed

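The submitters' processing notes name Agilent Feature Extraction 9.5 (9.5.3.1 per the file headers). Mean spot intensity and local background intensity are unnormalised as deposited. The scanner software's processed intensity has its background subtraction and dye normalisation applied, per the file headers. The deposited ratio is the log10 of processed Cy5 over Cy3, and the authors' value table holds the same log10 values.

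Mean intensities were corrected with normexp (offset 50) and normalised by loess within arrays, with control and outlier spots at weight 0. Outlier spots were left out and spots of a probe averaged. Probes with Cy5 well above background on at least 9 arrays, in at least 1 spot, were tested (27803). Names were updated through a GRCm38.p6 table (23374 probes matched by their own accession). The brightest probe stood for a gene. With limma 3.58.1 (R 4.3.3), knockout and wild type were compared over 22 arrays without covariates, and p-values adjusted by Benjamini-Hochberg over 18642 genes and unnamed probes, at 0.05. The fit was tested on simulated data without effects of slide, position or array, so that test does not cover such effects.

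Named were the 9 genes, the fixed pathway and interdigital genes, Chsy1, and the 3 genes most like Fas. The genes, lists and alternatives were chosen with earlier results of these data known. Alternatives covered background, scaling, filters, probes, blocks, weights and omitted arrays. All sample columns had a sample. Some fixed genes are not reported here.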

Additional observations from a re-analysis of the deposited data

Results flagged for a closer look

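Among 20 probes screened over the 9 wild-type arrays, 3 had an array far from the others, where chance gives about 1 in 20 groups. All 3 were dimmer probes that did not stand for their gene. The Bak1 probe at 26748876 to 26748935 had a log2 ratio of 0.956 in wild-type 4, against 0.26 in the next highest array. The Bmf probe at 118224017 to 118224076 had 0.583 in wild-type 4, against 0.23 in the next. The Apaf1 probe at 90496974 to 90497033 had -0.0462 in wild-type 1, against -0.33 in the next. The 13 knockout arrays were too many for this screen.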

How the results depend on the processing

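No gene of the 9 passed the threshold in any of 17 other settings or 22 omissions of an array. Fas stayed below 0 in all of them, from -0.36 without wild-type 8 to -0.044 in position 2 without the array labelled knockout 1, and Bmf stayed above 0, from 0.08 to 0.33. Bcl2, Bcl2l11, Bax and Apaf1 also kept their direction. With median centring the typical gene differed by 0.24. Measured from there, Bcl2l1 turned to 0.023, Bak1 to 0.025 and Casp8 to 0.0077. Bcl2l1 was 0.0095 with the replicate block and ran from -0.035 to 0.023 over the omissions. Bak1 was 0.059 in position 2 alone, 0.14 there without knockout 1, and 0.0032 without wild-type 1 and knockout 1. With position as a block it was again 0.059, since that fit draws its estimate from position 2 and is not a separate result. The cause was not tested. The number of genes called in the whole table, 4, was 1 with the scanner software's log ratio, 1 with median centring, 1 with the slide as a block, 1 with the replicate block, 1 with position as a block, 0 in position 2 alone and 1 there without knockout 1, and 2 without wild-type 1 and knockout 1. Over the omissions it ran from 2 (without wild-type 2, 5 or 6) to 6 (without wild-type 8). The quantile setting, position 2 without knockout 1, and the joint omission of wild-type 1 and knockout 1 were chosen after seeing the data. The deviations of same-numbered arrays had correlations from -0.31 to 0.49, and the labels state no pairing. These correlations were not compared with those of differently numbered arrays, so they cannot decide whether the numbers pair samples. Aquantile scaling leaves the ratios as they are, and the other filters on dim probes keep the same probe for each of the 9 genes. In these settings the direction of a difference could not change. Dim probes limit what can be said, since the offset compresses their ratios.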
